A study of Mus musculus with 4 samples.

Results

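Cycling keratinocytes of the mouse digit were defined as single cells that carried epidermal keratin transcripts together with transcripts of the proliferation genes Mki67, Top2a and Cenpf. A barcode was kept with at least 500 detected genes, at least 1000 UMIs (unique molecular identifiers, each standing for a captured transcript) and at most 10% mitochondrial UMIs. Members then had no UMI of the leukocyte gene Ptprc or the endothelial gene Cdh5, at least 20 UMIs of the epidermal keratins Krt5, Krt14, Krt1 and Krt10 together, under 4 UMIs of the hair keratins Krt35, Krt25 and Krt28, and at least 4 UMIs of Mki67, Top2a and Cenpf. This rule found 1121 cells among 39266 kept cells, of which 4640 passed the keratin gates. Because members were chosen by these measured values, levels of the rule genes, and of genes that go with them in dividing cells, are given as a description without a test.

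The series holds 4 single-cell libraries of digits from 8 weeks old wild-type FVB/NJ mice, 1 unamputated and 1 each at 12, 17 and 28 days post-amputation (dpa) through the middle phalanx, P2. The labels call amputation at this level non-regenerative and the tissue fibrosing. Tissue was cut out by hand, dissociated with trypsin and collagenase I, cleared of red cells, sorted for cells that exclude propidium iodide and run on the 10x Chromium 3' v3 chemistry. How many animals or digits entered each library is not given in the sources used here. With 1 library per time point no difference between libraries could be tested, and every interval below is a 95% interval that covers counting error only and treats UMIs as independent. Where 4 values stand in a row, they follow the order unamputated, 12, 17 and 28 dpa.

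The labels describe all libraries as mixed-sex pools, and the cycling keratinocytes did not match that description. By Xist and Y-linked transcripts, 347 of 367 unamputated members, 152 of 188 at 17 dpa and 306 of 425 at 28 dpa were called male, with 0 called female in any of those 3 libraries. At 12 dpa 109 of 141 members were called female and 0 male. Any difference of the 12 dpa library from the others therefore cannot be told apart from a difference in sex. Members numbered 367, 141, 188 and 425, with medians of 23426, 17399, 16990 and 13397 UMIs per cell, so depth also fell from the unamputated to the 28 dpa library. Scrublet, a doublet caller, marked 20.98%, 12.1%, 11.2% and 19.8% of members against 9.73%, 8.71%, 12.2% and 14.2% of the other keratin-gated cells. Marked cells were kept, and values without them are given where they change the share of members, the gene calls or the list medians. The layer, follicle and phase shares below were not recomputed without them. The libraries shared between 19 and 87 barcode sequences pairwise, but no member barcode.

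The epidermis renews itself from a basal layer attached to the basement membrane, where keratinocytes expressing Krt5 and Krt14 divide. Daughter cells that leave this layer switch to Krt1 and Krt10, stop dividing in most cases, and mature through spinous and granular layers into cornified cells. In a dividing cell, E2F factors drive the genes of DNA replication in S phase, histone genes are transcribed as DNA is copied, and a later wave of genes, bound by the MuvB complex together with B-Myb and FoxM1, builds the mitotic spindle and the kinetochores. After injury, keratinocytes at the wound edge switch on the stress keratins Krt6 and Krt16, and the layers behind them divide.

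The rule genes themselves are a description, since the rule fixed that they be present. Krt14, the basal type I keratin, stood at 8665, 8922, 9167 and 9968 counts per 1000000 UMIs (CPM, from the UMIs of all members of a library added together) and was detected in 98.4%, 98.6%, 99.5% and 99.3% of members. Krt5, its type II partner, stood at 4325, 3878, 5002 and 4577 CPM. Mki67 was detected in 97.0%, 97.2%, 98.9% and 99.1% of members, Top2a in 77.9%, 79.4%, 85.6% and 84.0%, and Cenpf in 79.8%, 80.9%, 81.9% and 89.6%. Outside the rule, Trp63, the master regulator of stratified epithelium, stood at 489, 478, 449.7 and 355 CPM in members and between 6.80 and 16.9 CPM in kept cells that failed the keratin gate. Col17a1, a collagen of basal keratinocytes, stood at 573.5, 541, 617 and 597 CPM against 4.65 to 11.9 CPM. The median sum of the 3 cycle genes was 24, 21, 24 and 24 UMIs against the required 4. At the threshold itself, 51, 16, 12 and 40 keratin-gated cells had a sum of 3 and stayed out, and 27, 14, 13 and 17 had a sum of 4 and came in. In the unamputated library, genes of the 4 G2 and M phase lists described below summed to 930.3 CPM in the cells just outside and 1105 CPM in those just inside. The same sums were 1701 and 2064 CPM at 12 dpa, 1179 and 2629 CPM at 17 dpa and 2370.0 and 2628 CPM at 28 dpa, each higher inside. Genes of the 2 S phase lists summed to 2060.0, 1766, 1738 and 2537 CPM outside and 1702, 2258, 2395 and 1981 CPM inside, lower inside in the unamputated and 28 dpa libraries.

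About 1 keratin-gated cell in 4 was cycling in every library. The share was 24.3% (interval 22.2 to 26.6), 23.9% (20.6 to 27.6), 26.4% (23.2 to 29.8) and 23.2% (21.3 to 25.2), and all 4 intervals overlap. After every cell was thinned at random to 5000 UMIs and the cycle cut lowered to 2 UMIs, the shares were 21.6% (19.5 to 23.8), 23.4% (19.9 to 27.1), 27.1% (23.8 to 30.7) and 26.6% (24.5 to 28.8). At equal depth the unamputated share was thus the lowest, its interval overlapped that at 12 dpa, touched that at 17 dpa and lay below that at 28 dpa. Cells under 5000 UMIs, 74, 33, 56 and 216 of them, were left out of the thinned shares.

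Other cell classes of the same libraries took another course. Among cells with at least 50 UMIs of Col1a1, Col1a2 and Col3a1, called fibroblast-gated here, the share past the same cycle cut was 8.71%, 8.30%, 2.54% and 1.46%, and 7.17%, 7.52%, 2.70% and 1.58% after thinning. Among cells with at least 2 UMIs of Cdh5, called endothelial-gated, it was 8.63%, 6.70%, 3.87% and 1.41%, and 7.91%, 8.00%, 4.77% and 3.57% after thinning. In mature neutrophils, which do not divide, 5 of 277 unamputated cells (1.80%) and 0 of 132, 111 and 81 cells at 12, 17 and 28 dpa passed the cut, which allows up to 2.27%, 2.70% and 3.70% when set at 3 counts of the total, and 2.76%, 3.27% and 4.45% by the exact interval. Their median depth was 2508, 1980.0, 2085 and 1540.0 UMIs. Among the few neutrophils of at least 5000 UMIs, 5 of 37 unamputated cells (13.5%, interval 4.54 to 28.8) passed the thinned cut, and 0 of 5, 15 and 7 cells at the later times. That interval covers the thinned fibroblast-gated and endothelial-gated shares of the unamputated library and overlaps the keratin-gated one. The plot of cycling shares shows the keratin-gated shares between 21.6% and 27.1% by either measure, while the fibroblast-gated and endothelial-gated shares at 17 and 28 dpa lay below the unamputated ones.

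**Figure D1:**
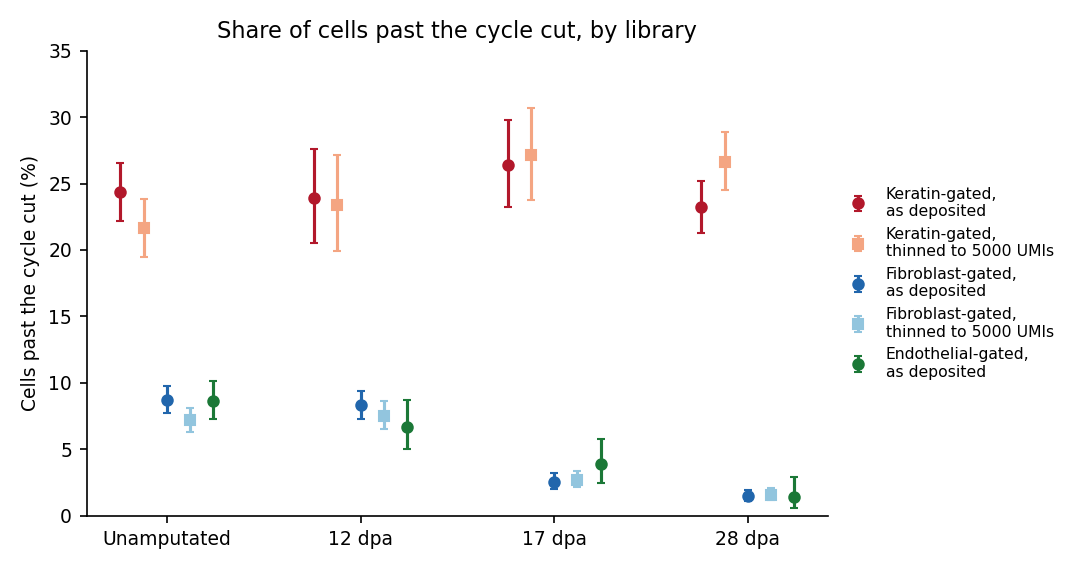
Percent of cells past the cycle cut (vertical axis) in each library, for keratin-gated, fibroblast-gated and endothelial-gated cells as deposited and, for the first 2, after thinning every cell to 5000 UMIs; bars are exact 95% binomial intervals that cover counting error only. Keratin-gated shares lie between 21.6% and 27.1% in all libraries, and fibroblast-gated shares as deposited lie at 8.71% in the unamputated and 1.46% in the 28 dpa library.

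Most cycling keratinocytes leaned to the basal layer, with a suprabasal minority in every library. Members with more Krt5 and Krt14 than Krt1 and Krt10 UMIs made up 85.6% (81.5 to 89.0), 80.1% (72.6 to 86.4), 84.0% (78.0 to 89.0) and 87.8% (84.3 to 90.7). Keratin-gated cells with no UMI of the 3 cycle genes, called non-cycling here and numbering 790, 339, 392 and 1096, were basal-leaning in 62.0%, 62.2%, 65.6% and 67.1%. Since these keratins entered the membership rule only as a sum, the split between them was not fixed by it. Read the other way, 30.8%, 28.5%, 31.5% and 28.4% of basal-leaning cells were cycling, and 10.9%, 14.5%, 14.2% and 10.1% of suprabasal-leaning cells. Thinned to 5000 UMIs, the same shares were 26.5%, 27.4%, 31.4% and 32.7% in basal-leaning and 10.8%, 15%, 16.5% and 11.5% in suprabasal-leaning cells. The basal-leaning share was the higher in all 4 libraries by both measures, with intervals that do not overlap.

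Suprabasal-leaning members differed from basal-leaning members in the layer genes picked here. Krt15, a keratin of basal cells, stood at 25.8, 31.5, 32.1 and 129 CPM in them against 426, 490.1, 766.5 and 516 CPM in basal-leaning members. Col17a1, a hemidesmosome collagen that holds basal cells to the basement membrane, stood at 172, 146, 238 and 135 CPM against 642, 648, 688 and 669 CPM. Dsg1a, a desmosomal cadherin of the upper layers, stood at 577, 358, 394 and 338 CPM against 93.1, 73.0, 74.0 and 84.0 CPM. Krt15 and Col17a1 were thus low and Dsg1a high in suprabasal-leaning members of every library. The split itself was made on layer keratins, and the genes shown were picked after their values were seen. No count over the fixed layer lists is given for this split. Krt2, a keratin of late spinous cells in some skin sites, stood at 1901, 275, 1916 and 2022 CPM in suprabasal-leaning members against 112, 7.16, 186 and 122 CPM. Notch3, a receptor of the signal that drives spinous commitment, stood at 123, 101, 69.8 and 68.1 CPM against 28.8, 25.1, 40.5 and 24.1 CPM. The ubiquitin ligase partner Ube2c, a gene of mitotic exit, was closer between the layers, with 149, 184, 156 and 314 CPM against 180.3, 248, 209 and 381 CPM. That did not hold for every cycle gene. Hells, of the DNA synthesis list, stood at 60.1, 26.5, 88.6 and 64.4 CPM against 148, 128.5, 155 and 111.5 CPM.

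Follicle-type cells cycled too. Among keratin-gated cells with at least 2 UMIs of Sox9 and Lhx2, transcription factors of hair follicle stem cells, 21.9%, 26.1%, 19.4% and 16.6% were members, against 25.03%, 23.6%, 28.6% and 26.2% of cells with neither. After thinning the shares were 18.7%, 22.6%, 19.5% and 20.6% against 22.5%, 24.4%, 29.9% and 29.6%. The thinned intervals overlap in the unamputated, 12 dpa and 17 dpa libraries. At 28 dpa the share was lower in the Sox9 and Lhx2 cells, with an interval of 16.6 to 25.05 against 26.85 to 32.4.

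Members were then set against the non-cycling keratinocytes of the same library. Of 7950 genes of at least 20 CPM, 375 (4.72%) were at least 2-fold higher in members in all 4 libraries and 109 (1.37%) at least 2-fold lower, with the rule genes left out. The rule chose cells on this contrast, so the counts carry no support. Of 22 kinetochore and checkpoint genes, 22 were among the higher ones, and the median of their log2 ratios lay between 4.66 and 5.35 in the single libraries. All 20 spindle and cytokinesis genes were among them, with library medians of 4.74 to 5.11, as were 20 of the 21 mitotic entry genes that reached 20 CPM (of 22), with medians of 4.14 to 4.81, and 8 of 8 mitotic exit genes. Of 39 DNA synthesis genes that reached 20 CPM (of 40), 35 were among them, with medians of 1.96 to 2.24, and 12 of 15 replication licensing genes (of 19). Off these lists, the kinase gene Pbk stood at 88.0, 90.6, 94.8 and 113 CPM in members and between 0.302 and 0.750 CPM in non-cycling cells, and the PCNA partner Pclaf at 249, 236, 271 and 337 CPM against 2.93 to 5.43 CPM. Of 13 spinous genes that reached 20 CPM (of 15), 6 were at least 2-fold lower in members, with library medians of -1.15 to -0.99, whereas the 14 basal and basement membrane genes held 0 at least 2-fold in either direction and medians of 0.06 to 0.16.

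**Figure D2:**
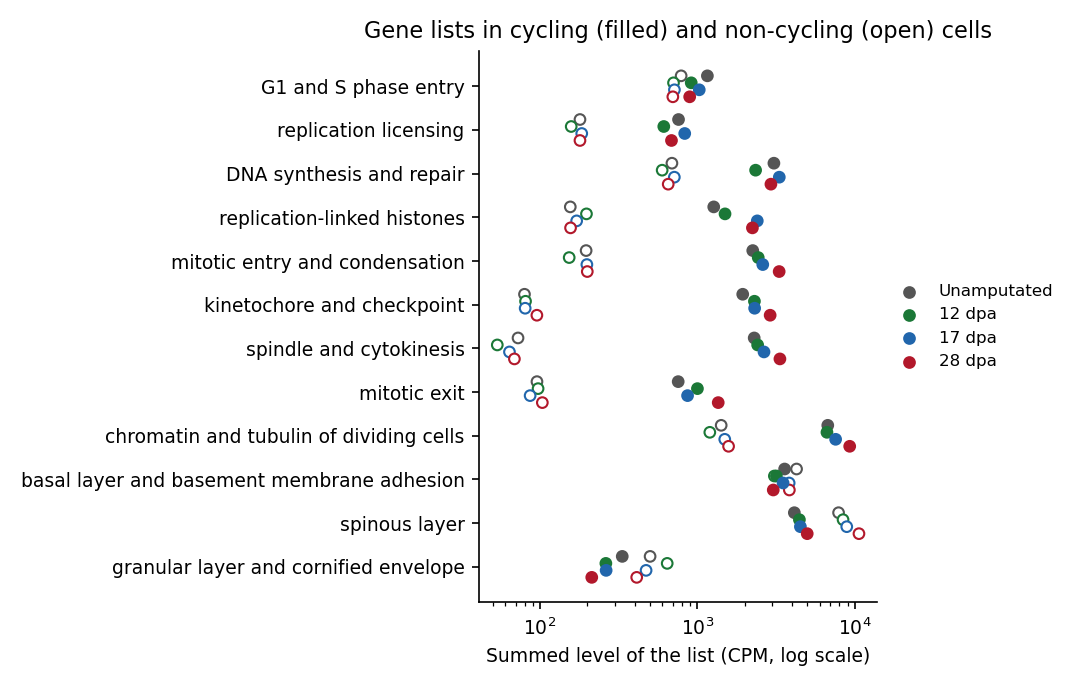
Summed level of 12 gene lists in CPM (logarithmic axis) in each of the 4 libraries, filled symbols for members and open symbols for non-cycling keratin-gated cells. All 4 mitotic lists stand above the non-cycling level in every library, as with kinetochore genes at 1942 to 2901 CPM against 79.7 to 95.6 CPM and mitotic exit genes at 755.5 to 1357 CPM against 86.6 to 103.5 CPM, and are highest in members at 28 dpa.

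Over the time course, the mitotic genes of cycling keratinocytes were highest at 28 dpa. Summed over a list, kinetochore and checkpoint genes stood at 1942, 2305, 2312 and 2901 CPM in members, spindle and cytokinesis genes at 2297, 2416, 2651 and 3347 CPM, mitotic entry and condensation genes at 2249, 2437, 2604 and 3310.0 CPM and mitotic exit genes at 755.5, 1001, 866.5 and 1357 CPM. The unamputated library was the lowest and the 28 dpa library the highest in each of these 4 lists. Genes were compared as log2 ratios of CPM with 1 CPM added, and a gene is called when it reached 20 CPM in either library and differed at least 2-fold. At 28 dpa against unamputated, 95 of 7277 genes (1.31%) were called higher and 163 (2.24%) lower, and the median ratio over all of them was -0.20. Without doublet-marked cells 55 genes were called higher, and 346 were called lower with thinned cells and 349 with the stricter cell filter. Against that, the median was 0.49 over 22 of 22 kinetochore genes, 0.52 over 20 of 20 spindle genes, 0.54 over 21 of 22 mitotic entry genes and 0.83 over 8 of 8 mitotic exit genes that reached 20 CPM. Few single genes passed 2-fold: 0, 0, 1 and 2 of these lists, but 22, 20, 19 and 8 of them had a ratio above 0, against 2325 of all 7277 genes. In non-cycling cells the same lists had medians of 0.07, -0.05, 0.17 and 0.32.

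Cks2, a small subunit that docks the mitotic kinase Cdk1 on its targets, stood at 230.3, 335, 334 and 515 CPM and was called at 28 dpa, with a log2 ratio of 1.16 (interval 1.08 to 1.24). Its level was lowest unamputated, equal at 12 and 17 dpa and highest at 28 dpa. Ube2c, which feeds ubiquitin to the anaphase-promoting complex and so ends mitosis, stood at 176, 234, 201 and 372 CPM, a log2 ratio of 1.08 at 28 dpa. Cdkn3, a phosphatase that acts on Cdk1 and Cdk2, stood at 50.6, 90.6, 60.0 and 112 CPM, a log2 ratio of 1.13 (0.97 to 1.31). All 3 genes were highest at 28 dpa and lowest in the unamputated digit. Cdc20, the activator of the same complex, stood at 112, 165, 133 and 219.8 CPM, and Pttg1, the securin that guards sister chromatids, at 101, 159, 148 and 203 CPM. Plk1, the kinase that drives mitotic entry, stood at 32.4, 61.0, 38.6 and 65.7 CPM. It was about as high at 12 dpa as at 28 dpa. Birc5, the survivin subunit of the chromosomal passenger complex, stood at 189, 287, 240.3 and 349.6 CPM, and Prc1, which bundles the midzone microtubules, at 251, 289, 357 and 471.5 CPM. Tubb4b, a tubulin of the spindle and of other microtubules, stood at 225.5, 322, 385 and 490.5 CPM and was called at 28 dpa with a log2 ratio of 1.12 (1.04 to 1.20), and its ratio in non-cycling cells was 1.26. At 12 and 17 dpa the 4 lists had medians between 0.12 and 0.39, of which the mitotic entry median at 12 dpa was -0.03 with thinned cells, and 0 of their genes were called higher, against 0.496% of all genes at 12 dpa and 0.977% at 17 dpa.

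The 28 dpa library was also the highest without any cycle cut. In all keratin-gated cells of a library together, the kinetochore genes summed to 685, 774, 843 and 958 CPM, the spindle genes to 787, 768, 942 and 1069 CPM, and the mitotic exit genes to 308, 382, 349.7 and 486 CPM, with the highest sum at 28 dpa in each. Over 16 alternative settings of gates, scaling and filters, the 28 dpa median lay between 0.39 and 0.67 for kinetochore genes, 0.30 and 0.70 for spindle genes, 0.38 and 0.72 for mitotic entry genes and 0.60 and 1.09 for mitotic exit genes. Members at 28 dpa were also the shallowest and unamputated members the deepest. When cells were thinned to 5000 UMIs before the cut, the mitotic exit median was 0.60 and the spindle median 0.30.

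**Figure D3:**
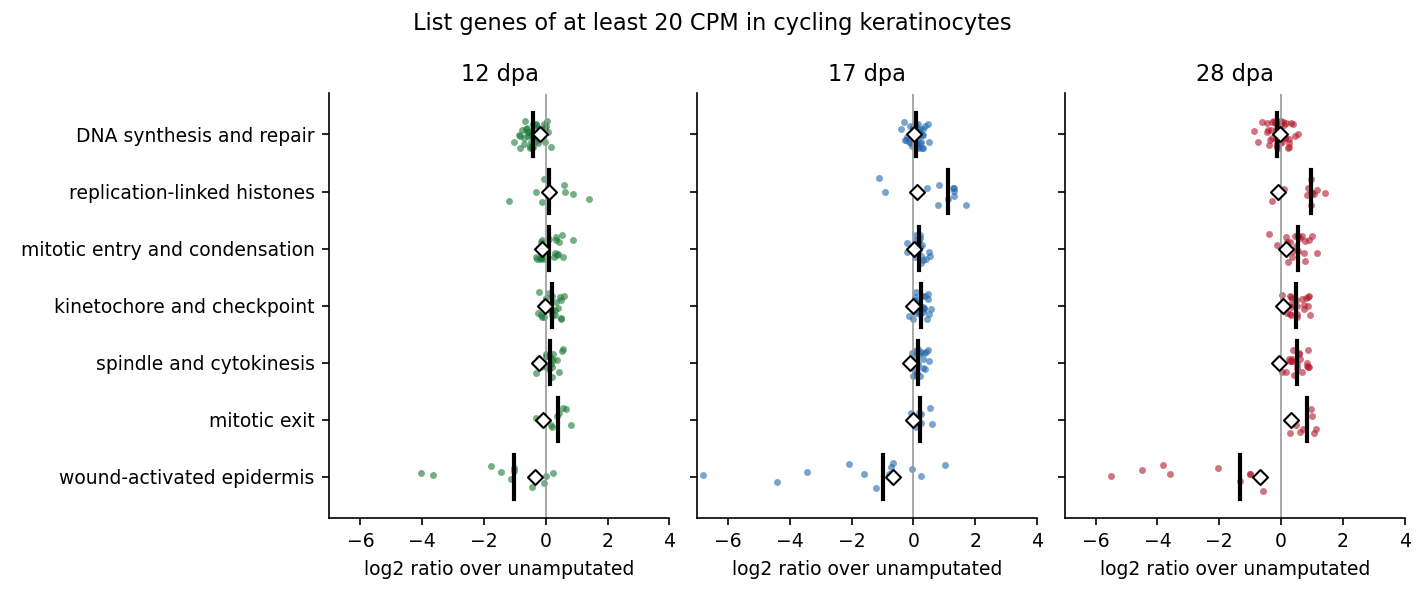
Log2 ratio of members at 12, 17 and 28 dpa over unamputated members for gene lists; each dot is a list gene of at least 20 CPM in either library, the black line the list median in members and the white diamond the median of the same genes in non-cycling cells. Mitotic lists sit above 0 at 28 dpa with medians of 0.49 to 0.83, and replication-linked histones have medians of 1.12 at 17 dpa and 0.97 at 28 dpa.

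Individual cells showed the same weight on the later phases. For each member, UMIs of the 4 G2 and M lists were taken as a share of those lists plus the 2 S phase lists, rule genes left out. The share passed 50% in 69.2% (interval 64.2 to 73.9), 78.7% (71.0 to 85.2), 74.5% (67.6 to 80.5) and 84.0% (80.2 to 87.4) of members. The median share per cell was 69.6%, 77.2%, 68.1% and 79.2%. The interval at 28 dpa lies above the unamputated one, while those at 12 and 17 dpa overlap it. Members were chosen on Mki67, Top2a and Cenpf, so the share describes the chosen cells and not all dividing keratinocytes. The cut was the same number of UMIs in libraries of different depth. When members were chosen on cells thinned to 5000 UMIs, 73.2% (67.9 to 78.1) of unamputated and 81.6% (77.6 to 85.2) of 28 dpa members passed, and these intervals overlap at their edges. The share is continuous, and 36, 12, 27 and 48 members lay between 45% and 55%. By layer, the suprabasal-leaning members passed 50% in 73.6%, 92.9%, 73.3% and 86.5% of 53, 28, 30 and 52 cells, and the basal-leaning members in 68.5%, 75.2%, 74.7% and 83.7%, with overlapping intervals in all 4 libraries.

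**Figure D4:**
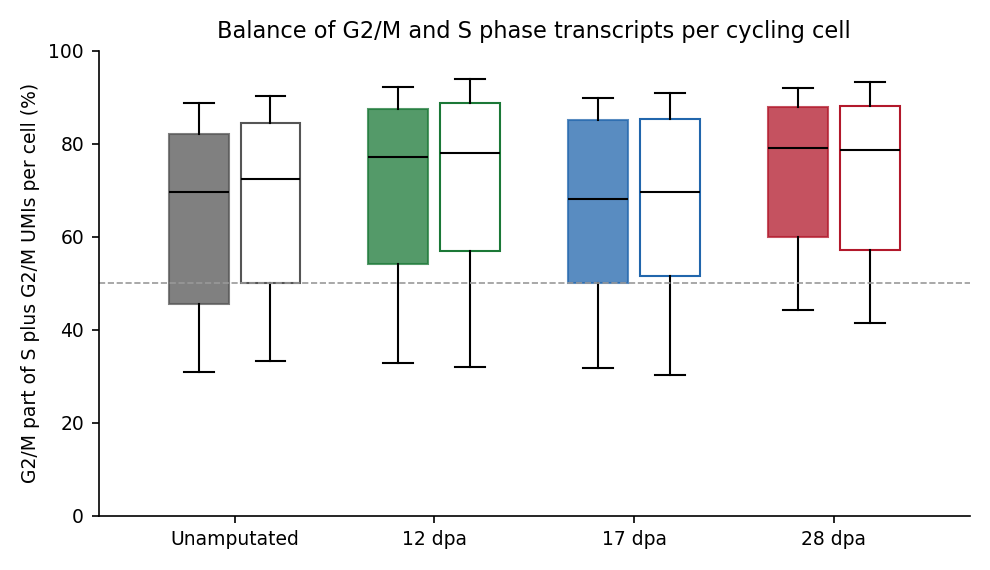
Share of G2 and M list UMIs among S, G2 and M list UMIs per cycling keratinocyte, in percent; boxes give the quartiles with the median, whiskers the 10th to 90th percentile, filled boxes all members and open boxes members chosen on cells thinned to 5000 UMIs, and the dashed line marks 50%. The median is 69.6% in unamputated members and 79.2% at 28 dpa, with wide overlap between cells of all libraries.

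Genes of DNA replication took another order over the libraries than the mitotic genes. DNA synthesis and repair genes summed to 3065, 2345, 3316 and 2934 CPM and replication licensing genes to 759, 612, 831 and 685 CPM, lowest at 12 dpa and highest at 17 dpa. Their medians per cell were 1859, 1428, 2842 and 2400 CPM and 506, 421, 629 and 527 CPM, in the same order. By this measure members at 28 dpa stood above unamputated members, where the sums stood below. At 12 dpa, where 36 of 7252 genes (0.496%) were called higher and 118 (1.63%) lower with a median of -0.15 (139 and 298 with thinned cells, and 487 lower with the stricter cell filter), 4 of 39 DNA synthesis genes had a ratio above 0 and their median was -0.40, between -0.52 and -0.24 over 16 alternatives. One, the homologous recombination gene Brca2, was called, at 68.1, 33.1, 56.7 and 50.4 CPM. Pcna, the sliding clamp of the replication fork, stood at 196, 107.5, 244.5 and 194 CPM. Rrm2, the regulated subunit of the enzyme that makes deoxynucleotides, stood at 116, 74.0, 121 and 95.1 CPM. Both were lowest at 12 dpa and highest at 17 dpa, without passing 2-fold. At 17 dpa the DNA synthesis median was 0.09 and at 28 dpa -0.12, the latter changing sign in 4 of 16 alternatives, to 0.06 when libraries were scaled by the median gene ratio in place of their totals and to 0.07 without doublet-marked cells. Of 18 genes of the G1 phase and of S phase entry, 0 were called at any time, but 0 of 15 that reached 20 CPM had a ratio above 0 at 12 dpa, 7 of 16 at 17 dpa and 1 of 15 at 28 dpa, with medians of -0.36, -0.05 and -0.39. The cyclin genes Ccnd1 and Ccnd2 stood at 215, 193, 203.5 and 206 CPM and at 112, 89.5, 71.6 and 61.3 CPM.

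Histone transcripts had the highest medians of the cell cycle lists at 17 and 28 dpa. At 28 dpa their range over the alternatives, 0.69 to 1.15, overlapped that of mitotic exit genes, 0.60 to 1.09. Replication-linked histone genes lack introns and are mostly transcribed without a poly(A) tail, so a poly(A) assay captures a part of them that can differ between cells. The 11 genes of the list summed to 1271, 1499, 2403 and 2238 CPM. At 17 dpa 71 of 7264 genes (0.977%) were called higher and 94 (1.29%) lower, with a median of -0.14. The count of higher genes was 34 without doublet-marked cells and 33 without members of at least 20 collagen UMIs, and that of lower genes 224 with thinned cells and 198 with the stricter cell filter. At 17 dpa 6 of the 11 histone genes were called higher and 1 lower, with a median of 1.12. At 28 dpa 4 of 11 were called higher with a median of 0.97, and at 12 dpa 1 of the 9 that reached 20 CPM was called higher and 1 lower with a median of 0.09, a value that ran from -0.15 to 0.40 over the alternatives. In non-cycling cells the medians were 0.09, 0.13 and -0.10. Hist1h1b, a linker histone of dividing cells, stood at 406.5, 432.5, 882 and 799 CPM in members, with a log2 ratio of 1.12 at 17 dpa and 0.97 at 28 dpa. Hist1h1e, another linker histone, stood at 231, 345, 574 and 450.3 CPM. Both were highest at 17 dpa, and Hist1h1e had log2 ratios of 0.58 at 12 dpa and 1.31 at 17 dpa. Hist1h4d, a core histone gene, was called at all 3 times, at 96.3, 253, 315.5 and 257 CPM, with log2 ratios of 1.39, 1.70 and 1.41. It was also higher at 12 dpa outside the cycling cells, at 10.9, 33.0, 23.4 and 20.4 CPM in non-cycling keratinocytes and 29.1, 65.1, 44.5 and 33.3 CPM in kept cells that failed the keratin gate. Hist1h2ae ran the other way, at 204, 89.2, 106 and 167 CPM, and was called lower at 12 dpa, and Hist1h2ap, at 77.4, 61.7, 35.05 and 152.5 CPM, was called lower at 17 dpa. Near-identical members of these families share reads, so values of single histone genes are uncertain.

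Off the list, 3 more histone genes ranked among the highest ratios at 17 dpa by the rule for named genes. Hist1h2af stood at 17.0, 23.97, 67.4 and 40.3 CPM, Hist1h3e at 18.6, 45.8, 54.7 and 41.3 CPM, and Hist2h2bb at 24.01, 50.8, 82.6 and 66.9 CPM. All 3 were lowest unamputated and highest at 17 dpa, and Hist1h3e and Hist2h2bb were, like Hist1h4d, called at all 3 times. H2afv, a histone variant made throughout the cycle, was highest later, at 231, 306, 328 and 528 CPM, and was called at 28 dpa with a log2 ratio of 1.19. H2afz, its close relative, stood at 1212, 1416, 1536 and 1976 CPM, a ratio of 0.70 at 28 dpa.

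**Figure D5:**
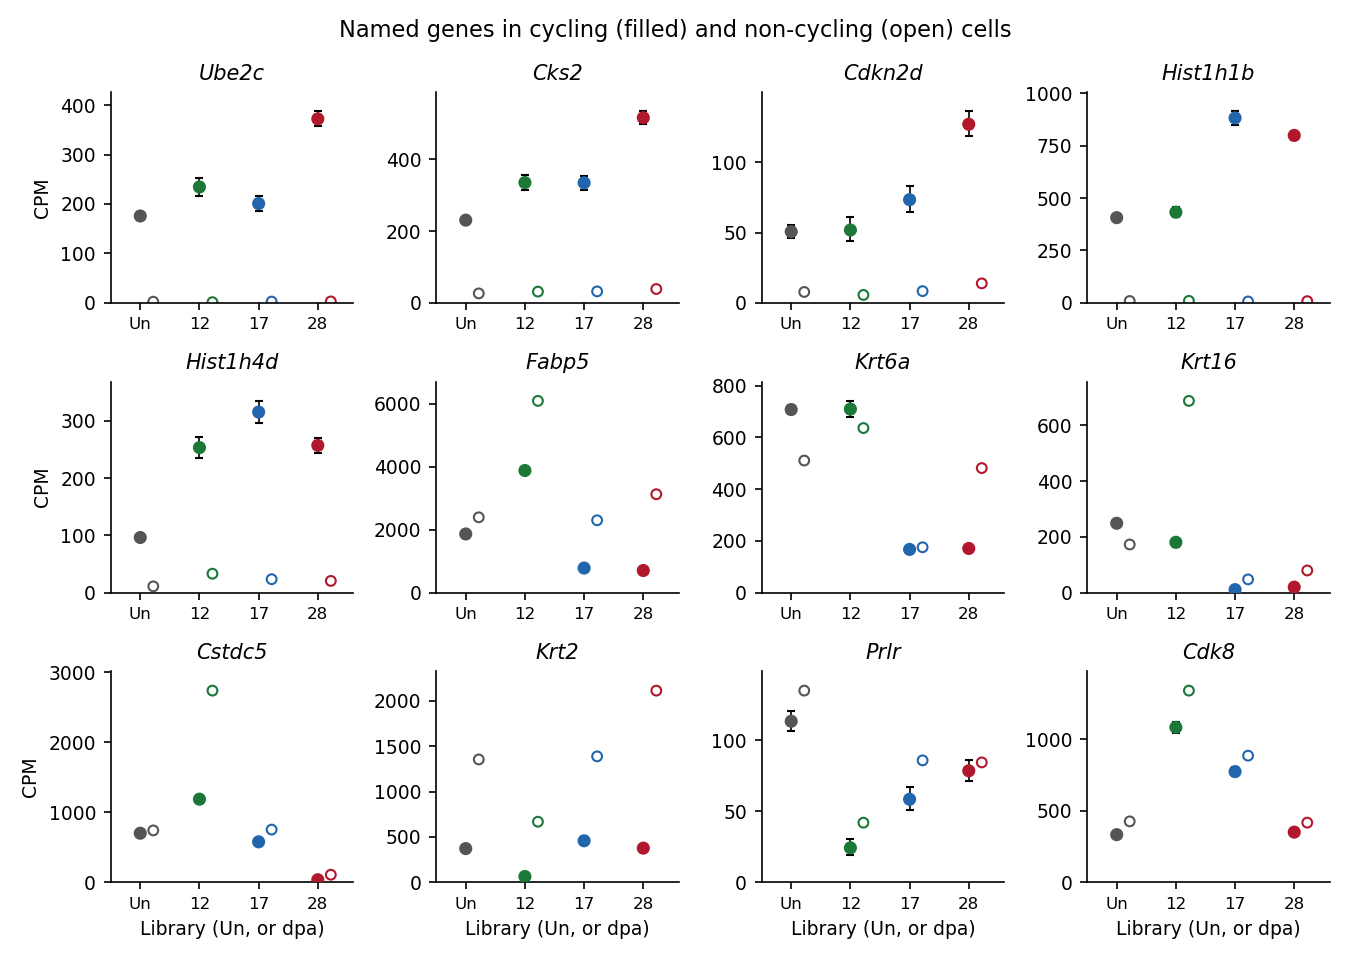
Level in CPM of 12 genes in members (filled) and non-cycling keratin-gated cells (open) of each library; bars are exact 95% Poisson intervals that cover counting error only. Ube2c, Cks2 and Cdkn2d are highest in members at 28 dpa, Hist1h1b and Hist1h4d at 17 dpa, Fabp5 and Cdk8 at 12 dpa, and Krt16 stands at 249 CPM unamputated and 10.7 CPM at 17 dpa.

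The promoters of these groups were read for known cell cycle motifs. Searched on both strands of the 250 bases before and 50 after each start, in RefSeq promoters of GRCm38.p6, were the CCAAT box by its letters, the cell cycle homology region or CHR, bound by the MuvB complex (TTTGAA), and the E2F core (TTTCCCGC or TTTCGCGC or TTTGCCGC or TTTGGCGC). A promoter counted once whatever its number of matches, and the words of different motifs were counted independently of overlap. Of all 32851 promoters in the table, 37.4% held a CCAAT box, 17.9% a CHR word, 6.95% both and 2.26% an E2F core. For the 4 G2 and M lists, 62 of 72 genes matched with 69 promoters, of which 73.9% held a CCAAT box, 63.8% a CHR word, 52.2% both and 7.25% an E2F core. For the 2 S phase lists, 47 of 59 genes matched with 56 promoters, of which 57.1% held a CCAAT box, 19.6% a CHR word and 33.9% an E2F core. The CHR word stood in 45.8% to 86.4% of promoters in the single G2 and M lists, and in 12.5% of DNA synthesis and 37.5% of replication licensing promoters. Of the 5 G2 and M promoters with an E2F core, 3 belonged to the mitotic entry list, and 0 of the 8 mitotic exit promoters held one. Of 10 histone promoters, 100% held a CCAAT box, 50% a CHR word and 0% an E2F core, and of 16 promoters of the wound list described below 6.25% held a CCAAT box. A match is a description of letters and not a binding site.

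Shown are the 150 bases before the start of selected genes. Candidates had a single promoter and carried the words in that window, and those highest in members were taken. They are 3 with CCAAT and CHR from the mitotic lists and 2 with an E2F core from the S phase lists. The last is the most abundant candidate of the histone list. Each is written 5′ to 3′ on the gene's own strand, from RefSeq GRCm38.p6, with matches of any of the 3 motifs in capitals.
Smc2 (chr4:52439071-52439220, plus strand): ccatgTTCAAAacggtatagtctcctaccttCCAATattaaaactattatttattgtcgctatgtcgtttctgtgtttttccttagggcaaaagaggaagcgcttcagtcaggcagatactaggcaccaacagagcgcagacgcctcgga
Ube2c (chr2:164769779-164769928, plus strand): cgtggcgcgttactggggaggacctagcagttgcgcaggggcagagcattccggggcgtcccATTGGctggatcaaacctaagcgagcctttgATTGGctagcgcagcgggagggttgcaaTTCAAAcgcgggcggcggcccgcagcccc
Cdc20 (chr4:118437344-118437493, minus strand): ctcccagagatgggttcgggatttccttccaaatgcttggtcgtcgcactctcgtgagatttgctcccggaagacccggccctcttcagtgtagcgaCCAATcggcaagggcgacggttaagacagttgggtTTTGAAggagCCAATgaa
Pola1 (chrX:93632156-93632305, minus strand): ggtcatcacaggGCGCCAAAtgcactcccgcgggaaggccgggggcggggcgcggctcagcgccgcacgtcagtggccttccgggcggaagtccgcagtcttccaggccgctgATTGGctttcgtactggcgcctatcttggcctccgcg
Hells (chr19:38930840-38930989, plus strand): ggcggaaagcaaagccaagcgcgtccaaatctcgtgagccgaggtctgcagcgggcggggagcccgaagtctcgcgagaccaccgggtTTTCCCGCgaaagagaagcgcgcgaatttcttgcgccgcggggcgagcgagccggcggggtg
Hist1h1b (chr13:21780626-21780775, minus strand): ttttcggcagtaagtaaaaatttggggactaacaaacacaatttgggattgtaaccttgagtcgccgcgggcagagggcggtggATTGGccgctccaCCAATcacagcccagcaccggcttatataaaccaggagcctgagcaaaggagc
Smc2, a condensin subunit that compacts mitotic chromosomes, stood at 262, 234, 294 and 333 CPM in members. In Ube2c and Cdc20 the CHR word lies 29 to 24 and 18 to 13 bases before the start, close to a pair of CCAAT boxes at 88 to 84 and 57 to 53 in Ube2c and at 53 to 49 and 8 to 4 in Cdc20. Pola1, the catalytic subunit of the primase polymerase, stood at 141, 198 and 128 CPM at 12, 17 and 28 dpa, with log2 ratios to unamputated of -0.61, -0.14 and -0.76, and Hells, a chromatin remodeller of replicating cells, at 136, 107, 144 and 105 CPM. Both replication genes were highest unamputated or at 17 dpa, unlike the mitotic genes above. In Hist1h1b the CCAAT boxes lie 66 to 62 and 53 to 49 bases before the start.

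Among inhibitors of the cycle, 1 gene was called at 28 dpa. Cdkn2d, the p19 inhibitor of Cdk4 and Cdk6 whose level is known to climb late in the cycle, stood at 50.6, 51.8, 73.4 and 127 CPM in members and at 7.77, 5.65, 8.36 and 13.9 CPM in non-cycling cells. It was called higher at 28 dpa with a log2 ratio of 1.31 (1.16 to 1.49). Cdkn1a, the p21 inhibitor induced by p53, stood at 35.5, 34.2, 40.4 and 46.5 CPM, below its 58.6, 73.8, 66.1 and 120.0 CPM in non-cycling cells. Trp53 itself stood at 90.8, 77.9, 93.3 and 86.8 CPM. Of the 13 genes of this list that reached 20 CPM (of 18), 1 was called higher at 28 dpa against 1.31% of all genes, 0 at 17 dpa, and 1 lower at 12 dpa against 1.63%, Btg2, at 57.3, 27.1, 45.2 and 50.4 CPM.

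Keratins and partners of the activated wound epidermis were lower in cycling keratinocytes at 17 and 28 dpa than in the unamputated digit, while 12 dpa depended on the measure. The list summed to 2185, 1783, 819 and 817 CPM over all members. Its median per cell was 473, 738, 256 and 209.6 CPM, highest at 12 dpa. Of 25 genes, 11 reached 20 CPM at 12 dpa and 7 were called lower, 12 at 17 dpa with 6 lower and 1 higher, and 11 at 28 dpa with 7 lower, with medians of -1.04, -0.99 and -1.34 against -0.15, -0.14 and -0.20 over all genes, of which 1.63%, 1.29% and 2.24% were called lower. In non-cycling cells the medians of the same genes were -0.34, -0.68 and -0.70. Krt6a, a stress keratin, stood at 707, 709, 167 and 171 CPM in members and was detected in 64.6%, 73.1%, 51.6% and 53.4% of them. It was about equal in the unamputated and 12 dpa libraries and about 4-fold lower at 17 and 28 dpa, with 20.9% of the unamputated UMIs from 1 cell. In non-cycling cells Krt6a stood at 510, 636, 175 and 481 CPM, with a 28 dpa log2 ratio of -0.08. Krt16, its partner, stood at 249, 180.5, 10.7 and 19.6 CPM and was detected in 20.98%, 26.2%, 9.04% and 10.1% of members, with 31.8% of the unamputated UMIs from 1 cell. In non-cycling cells Krt16 stood at 173, 688, 47.5 and 79.5 CPM, above the unamputated level at 12 dpa. Krt6b stood at 111, 49.7, 0 and 1.47 CPM, at least 124-fold lower at 17 dpa than unamputated when set at a floor of 3 counts over the library's members, and the list median stays at -0.99 with the gene at that bound. Yet 3.82% of unamputated members carried it and 1 cell gave 61.9% of its UMIs. In the 17 and 28 dpa comparisons Krt16 and Krt6b reached 20 CPM only through the unamputated library, where they were highest. Counts and medians of the list hold such genes and are a description, while its sums take in all 25 genes without a minimum. Krt17 stood at 596.5, 578, 359 and 380.0 CPM. Gjb2, a gap junction connexin of activated epidermis, stood at 120.3, 43.4, 10.1 and 60.0 CPM and was detected in 21.8%, 31.2%, 4.25% and 8.00% of members, with 76.5% of the 17 dpa UMIs from 1 cell.

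These values depended on few cells and on the settings. Thinning cells to 5000 UMIs moved the list medians to 0.02, -0.39 and -0.41, a change of sign at 12 dpa, while leaving out the highest cell of each gene in each library, an alternative chosen after seeing the data, gave -0.74, -1.34 and -1.79. In S100a8, an alarmin of wound keratinocytes that neutrophils also make in bulk, the values were 43.9, 1.76, 13.7 and 0.979 CPM. Neutrophil markers in the kept cells that failed the keratin gate summed to 2803, 18.6, 1858 and 16.2 CPM, the same order, and their part in S100a8 was not tested. Outside this list, Sprr1b, a cornified envelope precursor, stood at 64.4, 15.5, 9.51 and 16.1 CPM, with 39.9% of the unamputated UMIs from 1 cell.

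Fabp5 and the stefins followed different courses. Fabp5, a fatty acid binding protein of proliferating and differentiating keratinocytes, stood at 1861, 3875, 779 and 701 CPM in members and at 2390.0, 6084, 2296 and 3122 CPM in non-cycling cells. At 12 dpa it was over 2-fold above unamputated, with log2 ratios of 1.06 in members and 1.35 in non-cycling cells. In members it was below the unamputated level at 17 and 28 dpa. The log2 ratios there were -1.26 (-1.32 to -1.20) and -1.41 (-1.46 to -1.36), against -0.06 and 0.39 in non-cycling cells. The difference between the populations was not tested. Cstdc5, a cysteine protease inhibitor of the stefin A cluster, stood at 701, 1187, 578 and 37.2 CPM, a log2 ratio of -4.20 at 28 dpa. Its neighbours Stfa3 and Csta1, also on chromosome 16, stood at 173, 292, 209 and 25.8 CPM and at 58.6, 107.5, 41.6 and 14.2 CPM. All 3 were highest at 12 dpa and lowest at 28 dpa, and they are near-identical relatives whose reads may be shared. In non-cycling cells Cstdc5 stood at 741, 2737, 753 and 109 CPM, Stfa3 at 274, 592, 238 and 45.8 CPM and Csta1 at 50.8, 226, 50.8 and 26.2 CPM, again highest at 12 dpa and lowest at 28 dpa.

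Several named genes were lowest or highest in the 12 dpa library. Krt2 stood at 372, 64.2, 458 and 377 CPM, with a log2 ratio of -2.52 at 12 dpa where 1 cell gave 34.1% of the UMIs, and at 1355, 668, 1389 and 2114 CPM in non-cycling cells. Krt79, a keratin of the follicle's upper duct, stood at 63.5, 4.93, 30 and 47.6 CPM. Prlr, the prolactin receptor, stood at 114, 24.3, 58.5 and 78.6 CPM, and Serpinb7, an epidermal protease inhibitor, at 50.5, 11.6, 44.9 and 76.5 CPM. These 4 were lowest at 12 dpa. In non-cycling cells the 12 dpa log2 ratios were -1.02 for Krt2, -0.90 for Krt79, -1.66 for Prlr and -2.67 for Serpinb7, and Prlr had -1.31 in cells that failed the keratin gate. Tspear, an ectodermal gene of hair and tooth development, was highest there and lowest at 28 dpa, at 106, 328, 79.9 and 30.01 CPM, as was Mob3b, a kinase activator, at 72.7, 136, 54.7 and 32.1 CPM. Mir205hg, the host transcript of an epithelial microRNA, stood at 121.5, 256, 102.5 and 134 CPM. These 3 were also higher at 12 dpa in non-cycling cells, with log2 ratios of 1.35 for Tspear, 0.87 for Mob3b and 0.93 for Mir205hg. Cdk8, a kinase of the Mediator complex, stood at 333, 1083, 774 and 351 CPM, but the same course appeared in non-cycling cells, at 426, 1340.0, 885.5 and 417 CPM, and in kept cells that failed the keratin gate, at 343, 1277, 764 and 377 CPM. Without genes of the X and Y chromosomes, 34 genes were called higher and 110 lower at 12 dpa in place of 36 and 118.

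Other genes were named by rank at 17 and 28 dpa. Odc1, the first enzyme of polyamine synthesis, stood at 83.4, 81.8, 29.4 and 28.2 CPM, and Eno1, a glycolytic enolase, at 169.8, 91.99, 63.9 and 76.8 CPM. The zinc transporter gene Slc39a10 stood at 186, 112, 69.2 and 98.2 CPM. All 3 were called lower at 17 dpa. Wdr89 stood at 28.2, 33.5, 76.9 and 67.4 CPM and Ndufa4l2, a mitochondrial protein induced by hypoxia, at 27.8, 32.1, 73.1 and 68.3 CPM, both called higher at 17 and 28 dpa. Wdr89 had the same course outside the cycling cells, with log2 ratios of 1.48 and 1.47 in non-cycling cells and 1.44 and 1.34 in cells that failed the keratin gate, and Eno1 had -1.28 and -1.54 in these 2 populations at 17 dpa. Fst, the follistatin that binds activin, stood at 135, 75.1, 102 and 28.5 CPM, and Taco1, a translational activator of a mitochondrial oxidase subunit, at 61.2, 31.0, 27.6 and 15.5 CPM. Both were lowest at 28 dpa, and Taco1 had log2 ratios of -1.96 in non-cycling cells and -1.47 in cells that failed the keratin gate. Slc7a8, an amino acid transporter, was highest there at 19.8, 10.6, 7.72 and 57.4 CPM, in 8.71% of the 28 dpa members, and Fam25c stood at 194, 242, 308 and 420.4 CPM. In non-cycling cells the log2 ratios at 17 dpa were -1.35 for Odc1, -1.25 for Slc39a10 and 0.97 for Ndufa4l2. At 28 dpa they were 0.98 for Ndufa4l2, -1.565 for Fst, 0.83 for Fam25c and 0.24 for Slc7a8.

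Summed over all its genes, the EGF receptor axis stood at 546, 371, 366 and 350 CPM in members and at 592, 437, 498 and 419 CPM in non-cycling cells. Of 13 genes of the EGF receptor axis, 8 reached 20 CPM, and 5, 3 and 2 of them were called lower at 12, 17 and 28 dpa, against 1.63%, 1.29% and 2.24% of all genes, with medians of -1.06, -0.56 and -0.45, and -0.74, -0.28 and -0.39 in non-cycling cells. Egfr, the receptor itself, stood at 304, 242, 211.5 and 194 CPM. Areg, the ligand amphiregulin, stood at 23.4, 1.41, 1.48 and 1.63 CPM, with 33.8% of the unamputated UMIs from 1 cell. Spry2, a feedback inhibitor of the pathway, stood at 23.2, 6.34, 10.99 and 16.0 CPM. Areg and Spry2 reached 20 CPM only in the unamputated library, so the minimum took them in through the library where they were highest. For that reason the counts and medians of this list are a description. In the dissociation stress list, immediate early and heat shock genes that tissue handling can induce, 7, 1 and 0 of 15 were called lower at the 3 times, set against the same shares of all genes, with medians of -0.97, -0.38 and -0.19 in members and -0.95, -0.04 and -0.06 in non-cycling cells. Fos stood at 176, 61.3, 154 and 194.5 CPM and Egr1 at 118, 28.9, 90.3 and 72.2 CPM. Their part in the EGF receptor values was not tested.

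In the list of Wnt, Notch, FGF and TGF-beta signals, 1 of 20 genes that reached 20 CPM was called lower at 17 dpa and 1 of 19 at 28 dpa, against 1.29% and 2.24% of all genes. Lef1, a Wnt effector, stood at 47.2, 49.3, 12.8 and 12.1 CPM, with 74.4% of the 17 dpa UMIs from 1 cell. Wnt4, a ligand of basal keratinocytes, stood at 235, 305, 236 and 237 CPM, and Fgfr2, the receptor for keratinocyte growth factors, at 351.5, 376, 329 and 245 CPM. The attachment genes of the basal layer had medians of -0.18, -0.12 and -0.39. Of the cytokine list, 2 of 12 genes reached 20 CPM at 28 dpa. Cxcl14, a chemokine made by resting epidermis, stood at 284, 479.7, 229 and 562 CPM, and Cxcl1, which draws neutrophils, at 14.3, 7.05, 22.3 and 72.6 CPM with 37.5% of the 28 dpa UMIs from 1 cell.

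The remaining lists are read against the 1.63%, 1.29% and 2.24% of all genes called lower at 12, 17 and 28 dpa. Of the spinous list 12 of 15 genes reached 20 CPM, with medians of -0.03, -0.13 and -0.20, and 2 were called lower at 12 dpa, Krt2 and the calmodulin-like gene Calml3, the latter at 137, 63.1, 68.3 and 146 CPM. Of 14 granular and cornified envelope genes 3 reached 20 CPM, and 2 of them, Sprr1b and Flg, were called lower at every time. Both reached 20 CPM only in the unamputated library, so the minimum took them in where they were highest, and the calls are a description. Flg stood at 22.9, 2.47, 3.86 and 1.63 CPM, with 95.5% of the unamputated UMIs from 1 cell. Of 16 hair follicle and nail genes 8, 8 and 9 reached 20 CPM, with medians of -0.37, -0.74 and -0.07, and 1, 3 and 0 were called lower and 0, 0 and 1 higher. Lgr5, a receptor of follicle stem cells, stood at 44.6, 28.9, 9.21 and 43.0 CPM and was called lower at 17 dpa. The 15 growth and biosynthesis genes had medians of -0.04, -0.13 and -0.20, with 0, 3 and 2 called lower, Odc1 and Eno1 among them. Replication licensing genes had medians of -0.27, 0.12 and -0.19, with Cdt1, a loader of the replicative helicase, called lower at 12 dpa. The chromatin and tubulin list had medians of -0.05, 0.11 and 0.42, and 12 of its 12 genes had a ratio above 0 at 28 dpa.

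Transcripts of other cell types were also present in members, those of fibroblasts at the highest level. Fibroblast markers, 7 of 7 detected, summed to 2984, 3762, 4132 and 3063 CPM in members, 3372, 3832, 5604 and 4450.0 CPM in non-cycling keratinocytes and between 24655 and 35349 CPM in cells that failed the keratin gate. Members with at least 20 UMIs of Col1a1, Col1a2 and Col3a1 made up 5.72%, 10.6%, 9.57% and 10.1%, against 5.44%, 7.08%, 9.95% and 9.67% of non-cycling cells. Without those members the mitotic exit median at 28 dpa was 0.84 and the histone median at 17 dpa 1.16, but the genes called higher at 17 dpa numbered 33 in place of 71 and the wound median at 17 dpa was -1.77 in place of -0.99. Macrophage and dendritic markers summed to 20.1, 77.5, 48.7 and 156 CPM, most of it Lyz2, with Adgre1 at 0 in the unamputated library and at most 0.815 CPM elsewhere. Endothelial markers summed to between 5.35 and 17.3 CPM, and Cdh5 was at 0 by the rule. Neutrophil markers summed to 12.3, 0.352, 12.5 and 0.815 CPM, melanocyte markers to between 16.9 and 26.4 CPM with Tyrp1 at 0, Schwann markers to between 5.38 and 15.5 CPM, and Merkel and sweat gland markers to between 2.08 and 16.0 CPM with Krt20 and Atoh1 at 0. Osteoblast and tendon markers summed to 18.9, 23.6, 136 and 83.0 CPM, with 68.3% of the Ibsp UMIs at 17 dpa from 1 cell, T cell markers to between 36.9 and 63.4 CPM, nearly all Trbc2, and red cell markers to at most 3.17 CPM. Their part in the other results was not tested beyond the values given.

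The split of calls depended on the scaling. The median gene of at least 20 CPM in both libraries was lower than unamputated by a log2 ratio of -0.13, -0.13 and -0.18 at 12, 17 and 28 dpa. Scaled by the median gene ratio, 63 genes were called higher and 76 lower at 12 dpa in place of 36 and 118, 95 and 60 at 17 dpa in place of 71 and 94, and 160 and 98 at 28 dpa in place of 95 and 163. Under that scaling the 28 dpa medians were 0.67 for kinetochore, 0.70 for spindle, 0.72 for mitotic entry and 1.01 for mitotic exit genes, the histone medians at 17 and 28 dpa 1.25 and 1.15, and the wound medians -0.91, -0.87 and -1.01, all with the direction given above.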

How the data were processed

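Single-cell RNA-seq was read from 4 libraries, 1 per time point, as raw UMI counts per gene and barcode, deposited by the authors and made with Cell Ranger 7.1.0 on mm10, per the submitters' processing notes. Of 32285 genes, 32158 matched GENCODE M21 identifiers and took their coordinates. Library totals ran from 92313847 to 197140774 UMIs, and members' summed counts from 2837278 to 9619069. Members and gene lists were chosen with earlier results of these data known. Counts of members were summed per library and scaled to CPM. Log2 ratios used a pseudocount of 1 CPM, and genes needed 20 CPM in either library. Count and share intervals are exact Poisson and Clopper-Pearson (95%). Single genes named are members of 20 fixed lists, or rank among the 10 highest or lowest ratios of a comparison with 50 CPM or more in 1 of its libraries, leaving out rule genes, mitochondrial, haemoglobin, immunoglobulin, ribosomal and sex-marker genes, markers of other cells, and genes higher in cells failing the keratin gate. The genes of the layer comparison and the cycling genes off the lists were picked after their values were seen. Doublets were marked with Scrublet in scanpy 1.11.5, at an expected rate of 0.8% per 1000 barcodes, and kept. Thinning drew 5000 UMIs per cell with a fixed seed. Python 3.11.15, numpy 2.4.6, pandas 2.3.3, scipy 1.17.1 and matplotlib 3.10.9 were used, and the scripts were tested on simulated data. The alternatives tried are in the closing section, and no model was fitted. A result on 1 gene is not reported here.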

Additional observations from a re-analysis of the deposited data

Results flagged for a closer look

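For 3 genes the 12 dpa value lay below the unamputated value in cycling keratinocytes and above it in non-cycling keratin-gated cells, by at least 2-fold each way. Krt6b, a stress keratin, had a log2 ratio of -1.14 in members and 1.47 in non-cycling cells. Flg, the filaggrin precursor of granular cells, had -2.78 and 1.09. Slpi, a secreted protease inhibitor, had -1.02 and 1.55. The difference between the populations was not tested, with 1 library per time point. In the unamputated members 1 cell gave 61.9% of the Krt6b UMIs, 95.5% of the Flg UMIs and 39.2% of the Slpi UMIs.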

How the results depend on the processing

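With 1 library per time point, differences between libraries include any difference between animals, dissections or runs, and the smaller libraries limit rare genes most. No paired analysis was possible because each group holds 1 library. Of 336 alternative values of the 21 medians of the lead lists, 10 changed sign, in 4 of the medians, and over all 60 list medians 60 of 960 did, in 20 of them. The cause of the changes below was not tested. The alternatives on collagen transcripts, each gene's highest cell, sex chromosomes and the 12 dpa library were chosen after seeing the data.

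Members among keratin-gated cells, in the usual order, were 32.69%, 30.22%, 33.01% and 28.56% at a cycle cut of 2 UMIs, 19.69%, 17.83%, 22.05% and 19.28% at 8 UMIs, and 3.07%, 2.031%, 2.163% and 3.64% of all kept cells. Thinned cells gave 21.62% unamputated and 26.63% at 28 dpa, the stricter cell filter 28.64% and 26.77%, doublet removal 21.97% unamputated, a keratin gate of 50 UMIs 26.05% at 28 dpa, and the looser filter 20.19% at 12 dpa. The stricter filter left 126, 56, 94 and 231 members.

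Genes called higher at 12 dpa numbered 139 with thinned cells, 55 at a cycle cut of 8 UMIs, 23 without each gene's highest member, 55 with the looser filter, 63 with median-ratio scaling, 15 at 50 CPM and 320 with no minimum. At 17 dpa they numbered 34 without doublets, 29 at 50 CPM, 326 with no minimum and 33 without members of at least 20 collagen UMIs, and at 28 dpa 55 without doublets, 160 with median-ratio scaling, 54 at 50 CPM and 354 with no minimum. Genes called lower numbered 298, 224 and 346 at the 3 times with thinned cells, 76, 60 and 98 with median-ratio scaling, 47, 36 and 77 at 50 CPM, 621, 508 and 622 with no minimum, and 487, 198 and 349 with the stricter filter. A pseudocount of 5 CPM gave 78 at 12 dpa and 58 at 17 dpa, and a keratin gate of 50 UMIs 205 at 12 dpa. Without the 12 dpa library, 398 genes were higher and 136 lower in members than in non-cycling cells in all the others.

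Among the lead lists, the sign changed for DNA synthesis genes at 28 dpa (0.011 at a cycle cut of 2 UMIs, 0.068 without doublets, 0.018 as a per-cell mean, 0.060 with median-ratio scaling), mitotic entry genes at 12 dpa (-0.028 with thinned cells, -0.031 with thinned sums), histones at 12 dpa (3 values given further on) and the wound list at 12 dpa with thinned cells (0.018). Sign changes in other lists included the basal list at 17 dpa with median-ratio scaling (0.010), the cytokines at 28 dpa with no minimum (-0.230), the granular list at 17 dpa at a cycle cut of 2 UMIs (0.173) and the follicle list at 12 dpa without doublets (0.062). At 28 dpa, median-ratio scaling gave 0.672 for kinetochore, 0.717 for mitotic entry, 0.698 for spindle, 1.010 for mitotic exit and 1.149 for histone genes, thinned cells 0.301 for spindle and 0.601 for exit genes, and a cycle cut of 2 UMIs 1.093 for exit genes. Histones at 12 dpa gave 0.400 at a cycle cut of 8 UMIs, -0.151 at a keratin gate of 50 UMIs, -0.031 with the looser and -0.054 with the stricter filter, 0.333 at 50 CPM and 0.311 with no minimum. Without doublets they gave 1.288 at 17 dpa and 1.141 at 28 dpa, where the per-cell mean gave 1.152 and the stricter filter 0.691. The wound list gave -0.596 at 12 dpa as a per-cell mean and -0.254 at 50 CPM, at 17 dpa -0.393 with thinned cells, -1.848 without doublets, -2.763 at 50 CPM, -1.701 with the stricter filter and -1.766 without collagen-positive members, and at 28 dpa -0.412 with thinned cells and -2.056 without doublets.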
